A study of Mus musculus with 9 samples.

Results

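The mouse heart 7 days after myocardial infarction was compared with the sham-operated heart by bulk RNA sequencing. The comparison used 6 of the 9 libraries of the series, chosen by their labels: 3 labelled AMI with the time 7 days and 3 labelled Sham. The other 3, labelled AMI with the time 1 day, entered the same model and serve here to tell when a change was present. All 9 are of heart tissue of wild-type mice. No agent or allele is named for them. The hearts of Hdc-/- mice that the series describes were not analysed here. The labels do not give the strain, age or sex, the region of the heart that was sampled, the time of collection of the sham hearts or whether each library is from an animal of its own. The p-values below thus reflect only the variation among these libraries, possibly technical. Of 25468 genes in the file, the 13514 with a mean of 1 FPKM or more over the 9 libraries were tested. FPKM scales fragment counts by transcript length and library size, so levels of different genes can be compared.

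A week after coronary occlusion the mouse heart is replacing dead muscle with a scar. Fibroblasts secrete fibrillar collagen and other matrix proteins, enzymes crosslink the fibres, and macrophages clear debris. The muscle that survives works at a higher load and is known to change its contractile proteins, its calcium handling and its fuel use. Interferon-inducible GTPases, MHC class I genes and circadian clock genes are also transcribed in the uninjured heart.

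By limma, 2127 genes rose at day 7 and 2341 fell at an adjusted p under 0.05, which is 15.7% and 17.3% of the genes tested. At least 2-fold changes were found in 477 of the genes that rose and 195 of those that fell. The 3 day 7 libraries did not overlap the 3 sham libraries in 53.7% of all genes tested, and in 2110 and 2326 of the genes called higher and lower. Fold changes below are log2 differences of FPKM plus 1, day 7 minus sham, with the standard error after ±. The added 1 understates the change of genes at a low level. The median difference of all genes was -0.02. The FPKM of all genes summed to 768943 to 792632 in sham and to 521643 to 679204 at day 7. With the libraries rescaled to a common total (TPM), the median difference was 0.30 and the split of calls became 3809 higher and 527 lower. Lists with 2 or more falls are given with their TPM count as well. Single falls in a list are mostly given without it. Where leaving out 1 library moved a count of 5 or more by over 1.5 times, the count without it stands beside the list. Smaller counts are less stable: of 52 list counts from 1 to 4, 37 moved by over 1.5 times with some library left out.

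Some libraries stood apart from their group. Day 7 replicate 1 had 24.4% of its FPKM in mitochondrially encoded genes, against 36.0% and 38.0% in the other day 7 libraries. The summed FPKM of fibrillar collagens was 4722, 3232 and 3113 in the 3 day 7 libraries and that of sarcomere genes 21053, 29264 and 33976, so replicate 1 was also the highest in matrix and the lowest in muscle transcripts. Day 7 replicate 2 alone held skeletal muscle and T cell transcripts (Actn3 at 11.01 and Cd3e at 15.5 FPKM, against 0.291 and 1.04 or less in the other 5 libraries compared). Sham replicate 1 held the most transcripts of fat and airway cells (Adipoq at 69.0 and Scgb1a1 at 172 FPKM, against 9.22 and 0.448 or less in the other 5). Without day 7 replicate 1 there were 1279 higher and 1307 lower genes, and without both sham replicate 1 and day 7 replicate 2 there were 762 and 544. The heart muscle gene Myh6 was at 2919 FPKM or more in each of the 6 libraries.

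Another set of values goes with 2 libraries only. Hsp90aa1, which encodes the stress-inducible cytosolic Hsp90 chaperone, was at 147, 245 and 119 FPKM in sham and 1.71, 1.31 and 108 at day 7. Rpl12, a protein of the large ribosomal subunit, was at 296, 262 and 310.2 FPKM in sham and 3.39, 3.88 and 233 at day 7. Rrp1, a ribosome assembly factor, was at 35.3, 37.1 and 35.3 FPKM in sham and 0.534, 0.248 and 32.1 at day 7. Every cell uses these 3 genes, and in day 7 replicates 1 and 2 they are listed near 0 while day 7 replicate 3 was near sham. Of all genes at 20 FPKM or more in every sham and day 1 library, 4 were over 10-fold below the lowest of those libraries in a day 7 library: these 3 and the noncoding gene Gm26917. By rule the 3 belong to the 10 largest falls at day 7 (-4.22, -4.08 and -3.21). They are not described further as changes.

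The sequences shown next are promoters of genes whose values the later paragraphs describe. Each runs from 250 bases before to 50 bases after the RefSeq start (GRCm38.p6), 5′ to 3′ on the strand of the gene. The first 4 belong to interferon-inducible GTPases that fell together. Capitals mark the core of the interferon-stimulated response element on either strand, searched as GAAA, any 2 bases and GAAA.
Igtp, chr11:58199306-58199605, plus strand: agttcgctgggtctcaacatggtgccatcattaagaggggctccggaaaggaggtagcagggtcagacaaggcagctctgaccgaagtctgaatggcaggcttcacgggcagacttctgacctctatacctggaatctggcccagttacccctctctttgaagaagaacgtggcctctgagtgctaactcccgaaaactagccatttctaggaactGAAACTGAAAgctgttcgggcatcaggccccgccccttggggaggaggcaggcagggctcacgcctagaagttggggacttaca
Irgm2, chr11:58214727-58215026, plus strand: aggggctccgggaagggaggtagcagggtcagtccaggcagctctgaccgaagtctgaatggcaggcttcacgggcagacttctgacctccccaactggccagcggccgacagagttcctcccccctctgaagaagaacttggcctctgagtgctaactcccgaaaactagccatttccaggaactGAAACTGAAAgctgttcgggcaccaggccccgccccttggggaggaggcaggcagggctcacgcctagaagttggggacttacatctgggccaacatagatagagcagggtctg
Irgm1, chr11:48871371-48871670, minus strand: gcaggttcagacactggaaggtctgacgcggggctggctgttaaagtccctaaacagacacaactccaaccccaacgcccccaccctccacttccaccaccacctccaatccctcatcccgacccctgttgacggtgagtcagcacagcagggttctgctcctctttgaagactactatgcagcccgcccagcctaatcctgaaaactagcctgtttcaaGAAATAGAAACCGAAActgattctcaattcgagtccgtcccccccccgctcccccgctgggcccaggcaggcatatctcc
Gbp3, chr3:142559794-142560093, plus strand: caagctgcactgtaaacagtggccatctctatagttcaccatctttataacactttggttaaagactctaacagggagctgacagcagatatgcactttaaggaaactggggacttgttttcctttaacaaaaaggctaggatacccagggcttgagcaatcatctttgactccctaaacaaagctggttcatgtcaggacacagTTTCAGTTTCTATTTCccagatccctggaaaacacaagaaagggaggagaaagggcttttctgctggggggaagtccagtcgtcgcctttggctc
The match began 34 bases before the start in Igtp, 64 in Irgm2, 30 and 24 in Irgm1 and 45 and 39 in Gbp3, where it lies on the opposite strand. The motif was in 9 of the 10 promoters that the RefSeq table holds for the GTPase list, or 90%, and in 3.44% of all 32851 promoters of the table. Among promoters of all genes that fell it was in 3.11%, and among those that rose in 3.03%. It was chosen for search after the values were seen, and a match is a description of letters, not of binding.

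The other pair belongs to circadian clock genes that moved in opposite directions. In Ciart capitals mark CACGTG, the E-box that CLOCK and ARNTL bind, and in Arntl they mark TAGGTCA, the core of the element that ROR and REV-ERB receptors bind.
Ciart, chr3:95882179-95882478, minus strand: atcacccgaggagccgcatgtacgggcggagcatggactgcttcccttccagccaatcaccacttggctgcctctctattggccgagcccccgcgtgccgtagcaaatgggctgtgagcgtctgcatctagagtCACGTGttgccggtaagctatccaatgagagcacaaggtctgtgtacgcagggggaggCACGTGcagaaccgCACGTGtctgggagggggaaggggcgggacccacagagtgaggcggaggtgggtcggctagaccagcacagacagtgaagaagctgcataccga
Arntl, chr7:113207261-113207560, plus strand: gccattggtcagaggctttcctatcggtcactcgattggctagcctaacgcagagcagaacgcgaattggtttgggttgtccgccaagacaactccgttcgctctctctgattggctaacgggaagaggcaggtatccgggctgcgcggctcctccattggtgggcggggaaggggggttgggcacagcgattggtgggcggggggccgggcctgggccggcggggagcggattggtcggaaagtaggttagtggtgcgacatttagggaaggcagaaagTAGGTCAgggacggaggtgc
The E-box was in 6 of 20 clock gene promoters, or 30%, which belong to 5 of 15 genes. It was in 7.15% of all promoters and in 9.72% of those of genes tested. The ROR element was in 10% of clock promoters, 2.61% of all and 1.87% of those of genes tested. Both were chosen after the values were seen.

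Rises and falls were ranked among named genes that were called, did not overlap and reached a mean of 5 FPKM in sham or at day 7. The 10 largest rises among these were Cthrc1, Sfrp2, Ccn5, C1qtnf3, Fn1, Lox, Col1a1, Mfap4, Col11a1 and Ltbp2, at log2 differences from 4.99 down to 3.46. Among fibrillar collagens, 7 of 8 tested genes rose and 0 fell, with a median of 3.02. Col11a1, a fibrillar collagen best known from cartilage, was at 0.327, 0.3801 and 0.2899 FPKM in sham against 32.8, 8.78 and 10.7 at day 7 (3.56 ± 0.40, adjusted p = 0.00204). At day 1 it was still at 0.702, 0.751 and 0.261, and the difference between day 7 and day 1 passed the test (3.33 ± 0.40, adjusted p = 0.00662). Every day 7 library was thus above every sham and day 1 library. All sham and day 1 values of Col11a1 were under 1 FPKM, so it passed the filter, and counts among the 7, only through its day 7 values. Col3a1, the collagen of young scar, was at 168, 117 and 305 FPKM in sham and 2098, 1515 and 1493 at day 7 (3.20 ± 0.33, adjusted p = 0.00161). Its day 1 libraries, at 852, 832 and 598, lay between both groups, and day 7 against day 1 did not pass (adjusted p = 0.081).

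Collagens that do not form fibrils rose in 11 of 14 cases, with a median of 1.51 and 0 falls. Col12a1, which coats fibrils, went from 0.767, 2.33 and 1.46 to 33.4, 11.97 and 12.7 FPKM (2.91 ± 0.37, adjusted p = 0.00267). Col8a1, a short-chain collagen of vessels and scars, went from 12.1, 26.6 and 28.01 to 253, 73.5 and 113 FPKM (2.56 ± 0.51, adjusted p = 0.00931), with replicate 1 more than 2-fold above the other day 7 libraries. In the basement membrane list 9 of 18 rose, with a median of 0.54, and Col4a1 at 1.07 ± 0.31 (adjusted p = 0.0311) was one of them. The count was 5, 4 and 5 with sham replicate 1, sham replicate 2 and day 7 replicate 1 left out in turn.

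**Figure D1:**
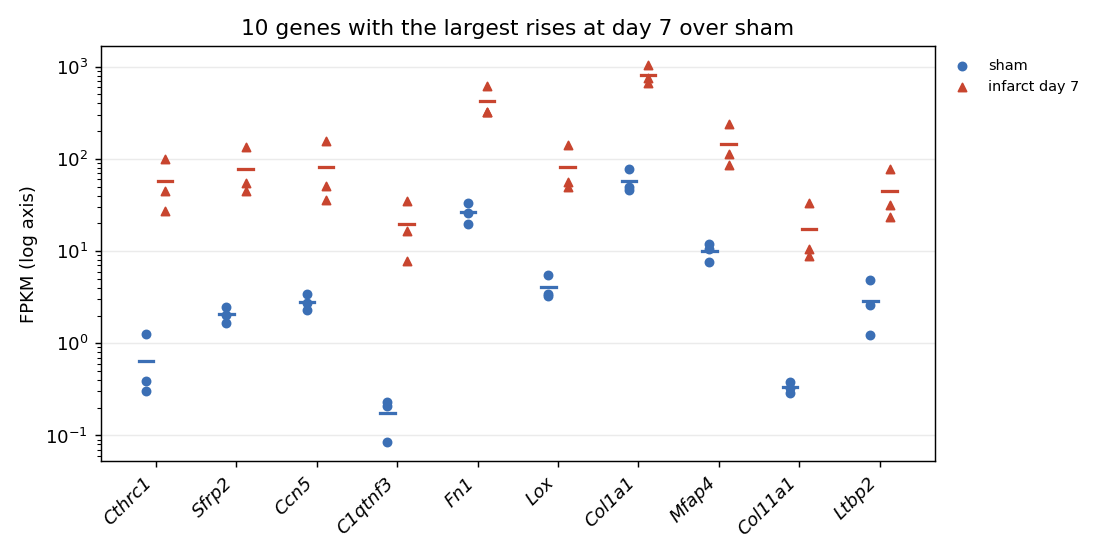
FPKM on a log axis in each of the 3 sham (blue circles) and 3 day 7 libraries (red triangles) for the 10 genes with the largest rises, with a bar at each group mean. Only genes with all day 7 points above all sham points could be drawn. The highest day 7 point is replicate 1 in each gene.

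Enzymes that fold, trim and crosslink collagen rose in 19 of 27 cases and fell in 0. Lox, the lysyl oxidase that crosslinks collagen and elastin, was at 3.28, 3.45 and 5.52 FPKM in sham and 139.8, 56.4 and 49.9 at day 7 (3.90 ± 0.37, adjusted p = 0.00109). It stood at 33.2, 42.5 and 51.2 at day 1, and the difference between the days did not pass (adjusted p = 0.234). P4ha3, a catalytic subunit of prolyl hydroxylase, rose from 0.448, 0.226 and 0.458 to 11.9, 4.03 and 4.95 FPKM (2.41 ± 0.30, adjusted p = 0.00256). Fkbp10, a prolyl isomerase of collagen folding, rose from 6.81, 4.798 and 7.96 to 27.8, 19.1 and 17.5 FPKM (1.57 ± 0.19, adjusted p = 0.00252). Serpinh1, the collagen chaperone Hsp47, rose by 1.002 ± 0.16 (adjusted p = 0.0046). In each of these 4 genes the groups did not overlap.

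Elastic fibre and microfibril genes rose in 14 of 18 cases with a median of 1.45, and 0 fell. Eln, the elastin gene, was at 22.4, 16.2 and 15.8 FPKM in sham and 783, 70.1 and 125 at day 7 (3.34 ± 0.78, adjusted p = 0.015). The large spread at day 7 comes from replicate 1, and the call on Eln was lost in 1 of 23 alternative settings. Fbn1, the microfibril protein fibrillin 1, was at 21.96, 26.5 and 42.8 and then 209, 92.5 and 114 FPKM (2.11 ± 0.33, adjusted p = 0.00458). Mfap2, another microfibril protein, was at 1.81, 2.28 and 3.14 and then 18.6, 13.8 and 11.95 FPKM (2.21 ± 0.25, adjusted p = 0.00204), a tighter group. Small leucine-rich proteoglycans, which regulate fibril assembly, rose in 4 of 12 cases. Among them were Bgn (1.91 ± 0.28), Aspn (1.49 ± 0.25) and Lum (1.17 ± 0.17), while Fmod at 2.07 ± 0.72 did not pass (adjusted p = 0.055).

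Decorin showed a change within the gene that its total does not show. The gene Dcn summed to 696, 689 and 729.7 FPKM in sham and 752, 881 and 841 at day 7 and did not pass the test (0.22 ± 0.15, adjusted p = 0.267). The share of that sum assigned to 1 of its transcripts was 44.8, 46.3 and 42.02% in sham and 81.9, 65.8 and 72.1% at day 7, with no overlap. For Fn1 the file separates transcripts with and without the alternative exons. Transcripts with the exon of 273 bases known as EIIIB held 3.55, 2.45 and 6.64% of the FPKM of the Fn1 transcripts that span its position in sham and 10.4, 15.01 and 13.6% at day 7, again with no overlap. For the exon of 270 bases known as EIIIA the shares were 19.01, 20.6 and 26.3% and 19.8, 30.7 and 26.8%, and the groups overlapped. At day 1 they were 32.6, 36.8 and 40.7%, above every sham and day 7 library, and those of EIIIB 9.89, 11.7 and 5.67%. These shares rest on how the authors' tool divided reads among transcripts and carry no test.

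Matricellular proteins, which sit in the matrix and signal to cells, rose in 15 of 24 cases, Fn1 included, and 0 fell. Postn, periostin, was at 47.6, 133 and 92.9 FPKM in sham and 1072, 439 and 638 at day 7 (2.98 ± 0.40, adjusted p = 0.00289). It was only at 117, 123 and 144 at day 1 (day 7 minus day 1 2.38 ± 0.40, adjusted p = 0.0203). Tnc, tenascin C, was at 1.51, 1.36 and 5.17 FPKM in sham, 18.9, 22.1 and 64.8 at day 1, and then 24.3, 18.03 and 15.3 at day 7 (2.58 ± 0.50, adjusted p = 0.00855). Spp1, osteopontin, was at 14.8, 5.23 and 33.7 FPKM in sham, 215, 309 and 378 at day 1, and then 78.5, 90.5 and 43.3 at day 7 (2.19 ± 0.56, adjusted p = 0.0202). Neither differed between day 7 and day 1 by the test (adjusted p = 0.481 and 0.0689). Genes better known from cartilage and bone rose in 7 of 12 cases, 4, 4 and 4 with sham replicate 2, sham replicate 3 and day 7 replicate 1 left out in turn. They included Comp (2.64 ± 0.78, adjusted p = 0.0323), Matn4 (1.77 ± 0.32, adjusted p = 0.00729) and the transcription factors Sox9 (1.19 ± 0.24, adjusted p = 0.00931) and Runx2 (0.96 ± 0.16, adjusted p = 0.00525).

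Proteases moved in both directions. Metalloproteinases and their inhibitors had 8 rises and 2 falls among 16 tested genes, and 10 and 1 with TPM. Mmp2, a gelatinase, rose from 28.2, 31.8 and 29.1 to 131, 92.8 and 100.6 FPKM (1.82 ± 0.24, adjusted p = 0.00269). Mmp14, its membrane-bound activator, rose from 10.05, 11.8 and 14.9 to 46.98, 38.6 and 34.6 FPKM (1.64 ± 0.18, adjusted p = 0.00184). The inhibitor Timp1 rose from 7.66, 8.94 and 37.7 to 81.2, 94.1 and 51.7 FPKM (2.32 ± 0.54, adjusted p = 0.0146), and Timp4 fell from 18.97, 12.9 and 18.1 to 2.55, 7.07 and 9.84 (-1.37 ± 0.38, adjusted p = 0.0266). The inhibitors Timp1 and Timp4 thus lay on opposite sides. Of the ADAMTS and ADAM genes 11 of 18 rose and 1 fell, and the rises numbered 7, 6 and 6 with sham replicate 1, sham replicate 2 and day 7 replicate 1 left out in turn. Among them was Adamts2, a procollagen peptidase, at 2.23 ± 0.27 (adjusted p = 0.00243).

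Secreted regulators of fibroblasts were among the rises. In the WNT list 13 of 27 rose and 0 fell, with a median of 0.61. The secreted antagonist Sfrp2 went from 2.495, 1.65 and 2.01 to 135, 44.6 and 55.2 FPKM (4.54 ± 0.52, adjusted p = 0.0021). Sfrp1 went from 10.3, 8.89 and 11.1 to 58.5, 28.7 and 30.1 FPKM (1.78 ± 0.25, adjusted p = 0.00338), and Frzb from 5.28, 8.595 and 8.69 to 57.4, 20.96 and 23.95 (1.93 ± 0.34, adjusted p = 0.00654). Each of the 3 antagonists was also higher at day 7 than at day 1 (adjusted p = 0.0158, 0.0206 and 0.0453). The receptor gene Fzd1 rose by 1.26 ± 0.11 (adjusted p = 0.000905), and the antagonist Wif1 at -0.64 ± 0.60 did not pass (adjusted p = 0.432). In the TGF-beta list 9 of 28 rose and 0 fell, including the ligands Tgfb3 (1.56 ± 0.32, adjusted p = 0.00974) and Tgfb1 (0.74 ± 0.13, adjusted p = 0.00721). The growth factor gene Igf1 rose from 10.6, 5.11 and 8.49 to 39.5, 33.8 and 25.4 FPKM (1.93 ± 0.31, adjusted p = 0.00486), one of 4 of 10 genes of its list, while Igfbp3 at 0.27 ± 0.31 did not pass (adjusted p = 0.526).

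C1qtnf3 and Angptl7 encode secreted proteins that rose after day 1. C1qtnf3 was at 0.0839, 0.209 and 0.229 FPKM in sham, 0.122, 0.233 and 0.0513 at day 1, and then 34.8, 7.86 and 16.6 at day 7 (3.92 ± 0.41, adjusted p = 0.00164). With sham and day 1 all under 1 FPKM, C1qtnf3 passed the filter only through its day 7 values. Angptl7, related to the angiopoietins, was at 5.77, 5.697 and 5.45 FPKM in sham, 15.3, 8.03 and 1.38 at day 1, and then 108, 40.5 and 49.9 at day 7 (3.21 ± 0.63, adjusted p = 0.00901). Their day 7 values were higher than those at day 1 as well (3.97 ± 0.41, adjusted p = 0.00309, and 3.12 ± 0.63, adjusted p = 0.0328). Against day 1, limma called 366 of all genes higher and 289 lower at day 7, or 2.71% and 2.14%, and 293 and 80 of these were called in the same direction against sham.

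Of the activated fibroblast markers 14 of 20 rose. The contractile genes Acta2 and Tagln did not pass. Acta2, smooth muscle actin, was at 142, 113 and 193 FPKM in sham and 143, 188 and 214 at day 7 (0.30 ± 0.22, adjusted p = 0.33). Tagln was at 62.4, 25.7 and 22.5 and 95.4, 68.7 and 43.1 FPKM (0.97 ± 0.42, adjusted p = 0.103). The groups overlapped in both genes. Fap, a surface protease of activated fibroblasts, rose by 0.99 ± 0.15 (adjusted p = 0.004). Of the resting fibroblast markers 6 of 14 rose and 1 fell. Cd248 went from 4.099, 3.39 and 4.41 to 18.1, 21.5 and 17.5 FPKM (2.01 ± 0.11, adjusted p = 0.000209) without overlap, whereas Pdgfra at 0.32 ± 0.11 did not pass (adjusted p = 0.0602). The gene that fell is Lpl, lipoprotein lipase, which heart muscle also expresses. Of mesothelial and epicardial markers 7 of 11 rose, but 2 to 3 with sham replicate 2, sham replicate 3, day 7 replicate 1 or day 7 replicate 3 left out. Wt1, an epicardial transcription factor, went from 5.37, 4.42 and 3.0002 to 7.97, 9.86 and 9.65 FPKM (0.97 ± 0.16, adjusted p = 0.00538).

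Vascular genes mostly did not pass. Of the endothelial markers 4 rose and 3 fell among 22, shares near those of all genes. With TPM 6 rose and 1 fell. Pecam1, a junction protein of all endothelium, was at 70.02, 68.9 and 67.5 FPKM in sham and 93.6, 66.4 and 70.8 at day 7 (0.14 ± 0.13, adjusted p = 0.434). Vegfa, the main angiogenic ligand and a product of heart muscle, fell from 91.01, 140.2 and 94.9 to 46.05, 44.96 and 56.9 FPKM (-1.11 ± 0.20, adjusted p = 0.00667). Vegfd, a lymphatic ligand, rose from 2.28, 1.28 and 2.46 to 12.6, 7.99 and 7.37 FPKM (1.77 ± 0.27, adjusted p = 0.00458). The apelin receptor gene Aplnr rose by 1.25 ± 0.26 (adjusted p = 0.0108). Of the smooth muscle and pericyte markers 3 of 16 rose, a share near that of all genes, and 1 fell, Abcc9 (-0.72 ± 0.21, adjusted p = 0.0302). Without sham replicate 1 and day 7 replicate 2, limma called 0 of them higher, and 5 were higher at an unadjusted p under 0.05. Pdgfrb, a pericyte receptor, was among the rises (0.81 ± 0.19, adjusted p = 0.0144), and Myh11 at -0.11 ± 0.38 did not pass (adjusted p = 0.844).

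**Figure D2:**
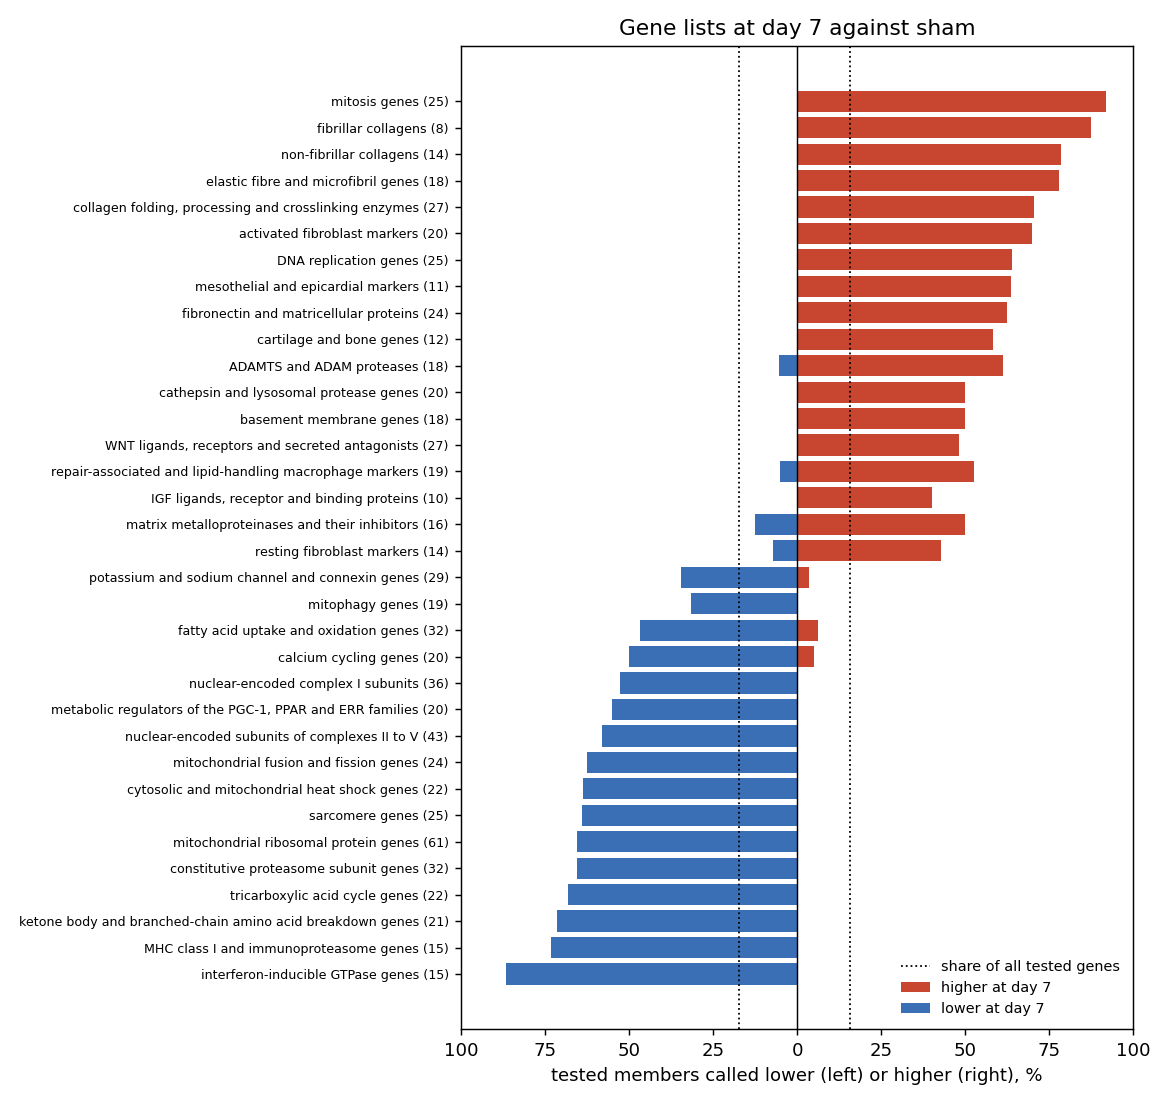
Percent of the tested members of 34 gene lists called higher (red, right) or lower (blue, left) at day 7, with the number tested in brackets. Lists were ordered by the share of rises minus the share of falls, among 72 lists with at least 8 tested genes. Drawn are the 18 highest and the 16 lowest, so lists that moved both ways can be missing. The dotted lines mark the 15.7% and 17.3% of all genes. Matrix and mitosis lists are at the top and interferon-inducible GTPases, with 13 of 15 lower, at the bottom.

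Sarcomere genes, which build the contractile apparatus, fell in 16 of 25 cases and rose in 0, with a median of -0.73. With TPM 8 fell and the median was -0.37. The count was 10, 3 and 10 with sham replicate 1, sham replicate 2 and day 7 replicate 1 left out in turn, and without both sham replicate 1 and day 7 replicate 2 there were 2 calls. Myom2, an M-band protein, was at 344, 367 and 320.5 FPKM in sham and 91.2, 90.97 and 126 at day 7 (-1.75 ± 0.16, adjusted p = 0.00109). Myl2, the ventricular light chain, was at 9600.3, 10909 and 9029.8 and 3268, 5486 and 6264 FPKM (-1.02 ± 0.30, adjusted p = 0.0332). Ttn, the giant spring protein titin, was at 924, 1213 and 1066 and 484, 588 and 796 FPKM (-0.80 ± 0.20, adjusted p = 0.0181). The call on Ttn was lost in 4 of 23 alternatives, TPM among them. The groups did not overlap in these 3 genes, and replicate 1 was the lowest or level with the lowest of the day 7 libraries in each. In bulk tissue, fewer muscle cells in a sample and less RNA per muscle cell cannot be told apart.

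The fetal and wall-stress genes did not move together: 1 rose and 3 fell of 20, shares near or below those of all genes. With TPM 2 fell. Myh7, the slow myosin heavy chain, was at 499, 1298 and 556 FPKM in sham and 144, 104 and 186 at day 7 (-2.33 ± 0.36, adjusted p = 0.0046). All day 7 libraries were below all sham libraries, and genes on the opposite strand overlap Myh7. Ankrd1, a stretch-responsive muscle protein, fell from 2689, 4629 and 5291 to 1947, 1448 and 1903 FPKM (-1.21 ± 0.32, adjusted p = 0.0236). The natriuretic peptide genes spread widely within groups. Nppa, the atrial peptide, was at 1021, 1413 and 156 FPKM in sham and 3465, 452 and 892 at day 7 (0.88 ± 1.34, adjusted p = 0.638). Nppb, the ventricular peptide, was at 763, 1537 and 1165 and 1134, 354 and 616 FPKM (-0.82 ± 0.55, adjusted p = 0.271). The atrial light chain gene Myl7 ranged from 13.2 to 619 FPKM in sham and from 127 to 497 at day 7, and its part in the Nppa values was not tested.

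Calcium cycling genes fell in 10 of 20 cases and 1 rose, and with TPM 4 fell and 2 rose. The falls numbered 4 with sham replicate 2 left out. Pln, phospholamban, the inhibitor of the calcium pump of the sarcoplasmic reticulum, went from 2068, 2430.5 and 2209.9 to 595, 1001 and 1205 FPKM (-1.32 ± 0.26, adjusted p = 0.00898). Atp2a2, the pump itself, went from 1945, 2083 and 1960.0 to 734, 1269 and 1555 FPKM (-0.82 ± 0.25, adjusted p = 0.0388), a call lost in 14 of 23 alternatives. Ryr2, the calcium release channel, was at 127, 145 and 144 and 85.2, 112 and 140.2 FPKM and did not pass (-0.33 ± 0.18, adjusted p = 0.19). Ion channel genes fell in 10 of 29 cases, with 2 falls under TPM, and 1 to 5 with sham replicate 2, sham replicate 3, day 7 replicate 1 or day 7 replicate 2 left out. Kcna5, which carries an ultrarapid potassium current, fell from 15.8, 19.5 and 19.5 to 5.903, 5.203 and 11.5 FPKM (-1.24 ± 0.29, adjusted p = 0.0147). Kcnj11, the pore of the ATP-sensitive potassium channel, fell too (-1.10 ± 0.22, adjusted p = 0.00946).

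Among regulators of the muscle phenotype, Myocd, a coactivator of serum response factor, fell from 21.6, 24.6 and 21.01 to 10.2, 11.9 and 15.3 FPKM (-0.81 ± 0.15, adjusted p = 0.00696). Gata4 was at 27.1, 36.8 and 33.3 and 27.7, 20.5 and 27.7 FPKM and did not pass (-0.35 ± 0.15, adjusted p = 0.107). The list of heart transcription factors had 1 rise and 3 falls (1 with TPM) among 17, shares of its members near or below those of all genes. The list of adrenergic, muscarinic and natriuretic receptor genes had 3 rises and 3 falls among 23, shares below those of all genes. With TPM 4 of them rose and 0 fell. Among its members Ace, the angiotensin-converting enzyme, rose from 24.7, 28.7 and 30.7 to 91.8, 44.1 and 52.7 FPKM (1.07 ± 0.26, adjusted p = 0.0163). The angiotensin receptor gene Agtr1a fell from 7.84, 6.06 and 7.76 to 2.34, 4.43 and 4.96 FPKM (-0.78 ± 0.21, adjusted p = 0.023), and Corin, the protease that processes the atrial natriuretic peptide, fell as well (-0.86 ± 0.22, adjusted p = 0.0189). The calls on Agtr1a and Corin were both lost with TPM. The beta-adrenergic receptor gene Adrb1 did not pass (-0.16 ± 0.12, adjusted p = 0.321).

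Nuclear-encoded subunits of complex I, the entry point of the respiratory chain, fell in 19 of 36 cases and those of complexes II to V in 25 of 43, with medians of -0.52 and -0.53. With TPM these counts were 7 and 9. For complex I the count was 3 to 11 with sham replicate 1, sham replicate 2, sham replicate 3 or day 7 replicate 1 left out, and for the other complexes 4 to 16 with sham replicate 1, sham replicate 2, sham replicate 3, day 7 replicate 1 or day 7 replicate 2 left out. Without both sham replicate 1 and day 7 replicate 2 limma called 0 and 0, with 21 and 21 lower at an unadjusted p under 0.05. Cox8b, a heart and muscle isoform of complex IV, went from 2182, 2141 and 1901 to 779, 1194 and 1198 FPKM (-0.998 ± 0.22, adjusted p = 0.0124). Tricarboxylic acid cycle genes fell in 15 of 22 cases, 11 with TPM and 4 with sham replicate 2 left out. Idh2, the mitochondrial isocitrate dehydrogenase, went from 493, 565 and 444 to 116, 215 and 241 FPKM (-1.45 ± 0.26, adjusted p = 0.00684). For both genes the groups were well apart. Of the 13 mitochondrially encoded genes 1 was called, a share below that of all genes. It was mt-Nd4l (-0.96 ± 0.28, adjusted p = 0.0304), which overlaps mt-Nd4. The abundant mt-Co1 was at 39587, 42907 and 38071 and 19929.8, 29945 and 34458 FPKM (adjusted p = 0.162).

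Fatty acid uptake and oxidation genes fell in 15 of 32 cases and rose in 2, and with TPM 9 fell. The falls numbered 2, 3 and 4 with sham replicate 1, sham replicate 2 and sham replicate 3 left out in turn, and 1 without both sham replicate 1 and day 7 replicate 2. Lpl, which frees fatty acids at the vessel wall, was at 912, 995 and 858 FPKM in sham and 211, 374 and 460.4 at day 7 (-1.47 ± 0.27, adjusted p = 0.00716). Cpt1b, the muscle gatekeeper of fatty acid entry into mitochondria, was at 174, 211 and 158 and 73.8, 124 and 136 FPKM (-0.74 ± 0.22, adjusted p = 0.0332). Fabp3, the fatty acid carrier, was at 3507, 3887 and 2852 and 1468, 2729 and 2539 FPKM and did not pass (-0.64 ± 0.27, adjusted p = 0.0926). Breakdown of ketone bodies and branched-chain amino acids had 15 of 21 genes lower, 4 with TPM and 7, 6 and 9 with sham replicate 1, sham replicate 2 and sham replicate 3 left out in turn. Glycolysis genes gave 6 falls and 2 rises among 28, shares near and below those of all genes. With TPM 2 fell and 2 rose. Their median was -0.26, and 0.09 with TPM. The falls numbered 1 to 10 with sham replicate 1, sham replicate 2, sham replicate 3, day 7 replicate 1, day 7 replicate 2 or day 7 replicate 3 left out. Hk2, a hexokinase, fell from 67.001, 75.6 and 68.6 to 29.9, 34.6 and 50.3 FPKM (-0.89 ± 0.21, adjusted p = 0.0155), while the glucose transporter genes Slc2a4 (-0.67 ± 0.23, adjusted p = 0.0511) and Slc2a1 (-0.10 ± 0.20, adjusted p = 0.718) did not pass.

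The regulators of these pathways were lower in 11 of 20 cases and higher in 0. Ppargc1a, the coactivator PGC-1 alpha, was at 56.4, 45.98 and 66.2 FPKM in sham and 8.06, 19.3 and 22.9 at day 7 (-1.79 ± 0.33, adjusted p = 0.00729). Ppara, the receptor that drives fatty acid genes, was at 17.1, 15.98 and 17.7 and 4.49, 5.85 and 8.54 FPKM (-1.33 ± 0.17, adjusted p = 0.00269). Esrrg and Perm1, partners in this network, both fell (-1.25 ± 0.19, adjusted p = 0.00406, and -1.25 ± 0.21, adjusted p = 0.00613). No day 7 library reached a sham library in these 4 genes. With TPM 8 of the regulators were called lower and 1 higher, and without sham replicate 1 and day 7 replicate 2 there were 9, so this list held more of its calls than the respiratory subunits did, a difference that was not tested.

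Mitochondrial fusion and fission genes fell in 15 of 24 cases and rose in 0, with 4 falls under TPM and 7 with sham replicate 2 left out. Mfn2, a fusion GTPase of the outer membrane, was at 143, 179 and 152 FPKM in sham and 70.8, 91.9 and 113 at day 7 (-0.80 ± 0.17, adjusted p = 0.0113). Dnm1l, the fission GTPase DRP1, was at 39.3, 44.96 and 43.9 and 24.4, 27.8 and 32.4 FPKM (-0.59 ± 0.11, adjusted p = 0.00848), a call lost with TPM. Fis1, a fission adaptor, was at 89.2, 83.97 and 84.2 and 90.6, 85.4 and 85.2 FPKM (0.02 ± 0.08, adjusted p = 0.871), and its groups overlapped. Mitophagy genes fell in 6 of 19 cases, 3 with sham replicate 2 left out, such as Pink1 (-0.70 ± 0.17, adjusted p = 0.0171). With TPM 3 fell and 2 rose, with a median of 0.06. Mitochondrial ribosomal proteins fell in 40 of 61 cases, 7 with TPM and 26, 18 and 26 with sham replicate 1, sham replicate 2 and day 7 replicate 1 left out in turn.

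**Figure D3:**
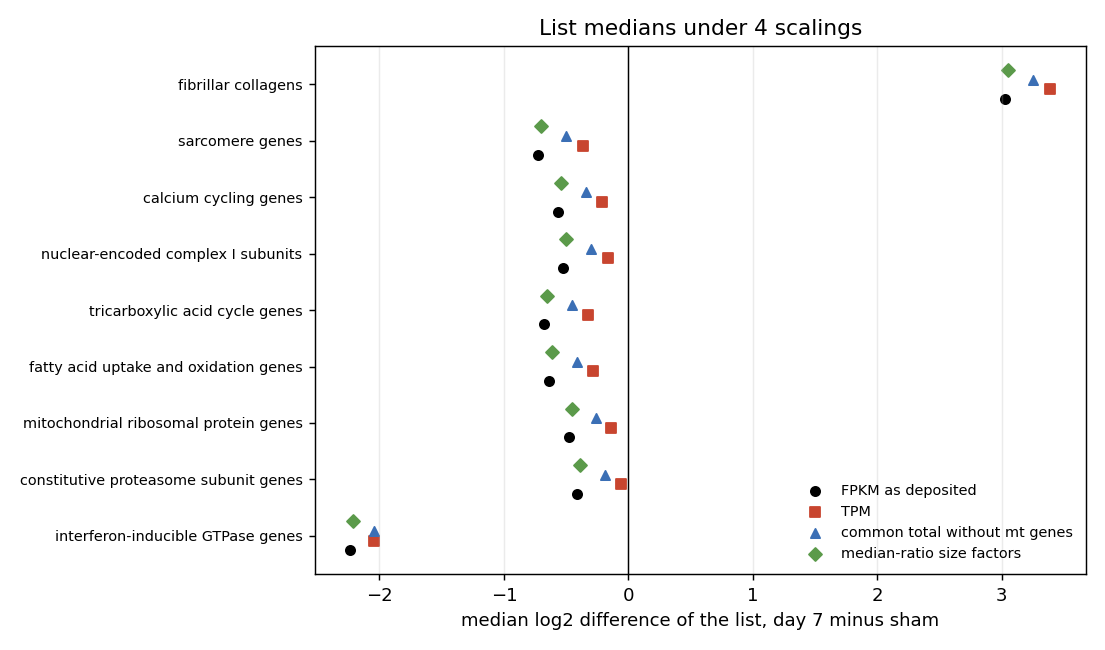
Median log2 difference (day 7 minus sham) of 9 gene lists under 4 scalings of the same FPKM values. The muscle, energy, mitochondrial and proteasome lists move towards 0 with TPM, where the proteasome median is -0.06, while fibrillar collagens stay above 3 and interferon-inducible GTPases below -2.

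The series concerns the noncoding RNA gene AI662270 and Hsp90b1, which encodes the endoplasmic reticulum (ER) chaperone GRP94. AI662270 was at 3.49, 2.02 and 4.11 FPKM in sham, 9.297, 13.8 and 12.1 at day 1, and then 3.95, 7.39 and 3.66 at day 7. Its day 7 value did not pass against sham (0.49 ± 0.27, adjusted p = 0.183) or against day 1 (-1.12 ± 0.27, adjusted p = 0.0515). Among the day 7 libraries only replicate 2 lay above all sham libraries. Hsp90b1 was at 222, 245 and 227 FPKM in sham and 241, 221 and 222 at day 7 (-0.02 ± 0.10, adjusted p = 0.896). It was lower than at day 1 (-0.75 ± 0.10, adjusted p = 0.00864), as was Hspa5, the ER Hsp70 chaperone (-0.75 ± 0.12, adjusted p = 0.0195), which did not differ from sham by the test either (-0.18 ± 0.12, adjusted p = 0.286). Another gene model overlaps AI662270 on its strand, and others overlap Hsp90b1 on both strands. Hdc, the histamine-forming enzyme, was at 2.21, 1.92 and 2.24 and 1.74, 3.41 and 2.04 FPKM (0.09 ± 0.29, adjusted p = 0.832).

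ER chaperones and folding enzymes as a list rose in 12 of 31 cases and fell in 3 at day 7, while 13 were lower than at day 1 and 0 higher. With TPM 19 of the list rose and 0 fell against sham. Sdf2l1, an Hsp40-associated ER protein, was at 7.96, 8.94 and 10.6 FPKM in sham, 29.98, 29.5 and 36.99 at day 1, and then 11.9, 12.2 and 11.8 at day 7 (0.36 ± 0.12, adjusted p = 0.0456). Pdia4, a disulfide isomerase, was at 22.95, 24.8 and 25.998, 60.3, 64.9 and 67.2 and 41.5, 38.8 and 37.2 FPKM in the same order of groups (0.65 ± 0.09, adjusted p = 0.00278). In both the 3 groups were fully separate, with day 7 in the middle. Txndc5, an isomerase of fibroblasts, was at 26.5, 26.6 and 28.1 FPKM in sham, 49.8, 50.01 and 47.2 at day 1, and then 84.4, 47.4 and 47.3 at day 7 (1.06 ± 0.20, adjusted p = 0.00799). Creb3l1, a transcription factor of secretory cells, rose by 0.70 ± 0.10 (adjusted p = 0.00412) and Ddit3, which encodes CHOP, fell from 36.7, 68.1 and 26.7 to 16.9, 15.7 and 16.7 FPKM (-1.26 ± 0.27, adjusted p = 0.0119). Xbp1 did not pass (0.01 ± 0.10, adjusted p = 0.925). Of the genes for translocation, glycosylation and export 12 of 40 rose and 3 fell, such as Kdelr3 (1.29 ± 0.17, adjusted p = 0.00292) and Sec61b (0.91 ± 0.14, adjusted p = 0.00418). With TPM 24 of this list were higher and 0 lower. The rises numbered 7 and 7 with sham replicate 1 and sham replicate 2 left out in turn.

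Interferon-inducible GTPases, which protect cells from intracellular microbes, were 6 of the 10 largest falls at day 7 by the ranking described for the rises. Of this list 13 of 15 fell and 0 rose, with a median of -2.23. With TPM 11 fell, and without both sham replicate 1 and day 7 replicate 2 10. Igtp was at 322, 367 and 194 FPKM in sham and 8.97, 14.4 and 9.98 at day 7 (-4.58 ± 0.34, adjusted p = 0.000508). Iigp1 was at 465, 469.7 and 278 and 16.6, 20.9 and 16.3 FPKM (-4.39 ± 0.31, adjusted p = 0.000481), and Irgm1 at 288, 288 and 177 and 23.5, 23.5 and 20.9 (-3.38 ± 0.32, adjusted p = 0.00109). Sham replicate 3 had the lowest sham value in each of these 3 genes, and the day 7 libraries lay closer together than the sham libraries. Gbp10, a guanylate-binding protein, was at 104, 115 and 54.98 and 1.903, 4.43 and 2.71 FPKM (-4.50 ± 0.35, adjusted p = 0.000513). Gbp4 fell by less (-1.91 ± 0.14, adjusted p = 0.000513), and Gbp2 (-0.86 ± 0.32, adjusted p = 0.0681) and Gbp8 (0.14 ± 0.33, adjusted p = 0.759) did not pass. Members of these families are near copies, Igtp overlaps Irgm2, Gbp4 overlaps Gbp8 and Gbp9, and a predicted gene overlaps Gbp6 and Gbp10 on the same strand, so single values are uncertain. Between day 7 and day 1 limma called 0 of the 15 tested members, and at an unadjusted p under 0.05 1 were lower and 0 higher at day 7.

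Genes of MHC class I presentation fell with them, in 11 of 15 cases with a median of -1.02, and in 9 cases with TPM. B2m, the light chain of all class I molecules, was at 1562, 1474 and 1260.0 FPKM in sham and 611, 777 and 585 at day 7 (-1.13 ± 0.21, adjusted p = 0.00778). The immunoproteasome subunit gene Psmb8 was at 85.7, 57.6 and 61.9 and 21.7, 35.8 and 21.5 FPKM (-1.36 ± 0.30, adjusted p = 0.0119), and Nlrc5, the class I transactivator, at 7.67, 7.01 and 8.13 and 2.29, 2.11 and 1.94 (-1.47 ± 0.23, adjusted p = 0.00487). In all 3 the groups were separate. Irf7, an interferon regulatory factor, fell from 129, 146 and 98.6 to 19.2, 19.6 and 18.5 FPKM (-2.62 ± 0.48, adjusted p = 0.00732). The type I interferon-stimulated list had 3 of 20 falls (2 with TPM), a share below the 17.3% of all genes, and 0 rises. Its median was -0.64, and by limma 8 were lower at an unadjusted p under 0.05. Ifit1 fell (-1.71 ± 0.46, adjusted p = 0.0234), a call lost in 7 of 23 alternatives, TPM among them. Isg15 (-0.58 ± 0.50, adjusted p = 0.394) and Oas2 (-0.17 ± 0.27, adjusted p = 0.658) did not pass. Cxcl9, a chemokine that interferon gamma induces, fell from 3.31, 2.57 and 3.81 to 0.475, 0.879 and 0.931 FPKM (-1.26 ± 0.23, adjusted p = 0.00739). By limma MHC class II and dendritic cell genes gave 0 calls among 9, with 0 higher and 0 lower at an unadjusted p under 0.05. T and natural killer cell markers gave 0 calls among 12, with 0 higher and 0 lower at that unadjusted p. The summed FPKM of the latter was 22.6, 16.6 and 34.1 in sham and 17.3, 147 and 17.3 at day 7.

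**Figure D4:**
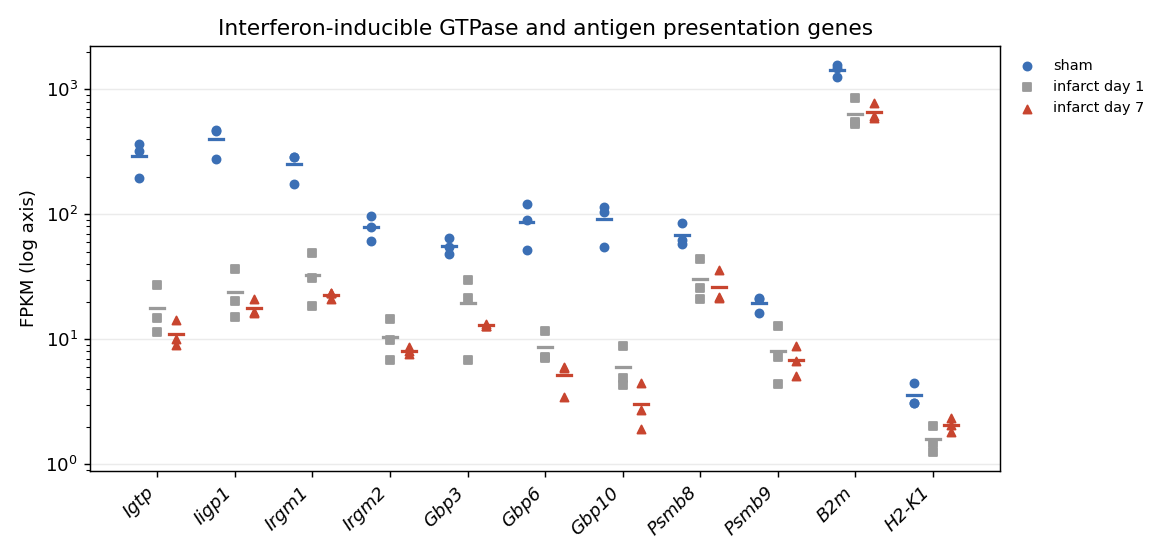
FPKM on a log axis of interferon-inducible GTPase and antigen presentation genes in each sham (blue circles), day 1 (grey squares) and day 7 library (red triangles), with bars at the group means. The day 7 points lie below the sham points in all 11 genes and near the day 1 points, for Igtp between 8.97 and 14.4 FPKM.

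Macrophage genes rose in part. The monocyte and macrophage markers had 6 of 18 rises, 2 to 3 with sham replicate 1, sham replicate 2, day 7 replicate 1 or day 7 replicate 2 left out, and 1 fall, and repair-associated and lipid-handling markers rose in 10 of 19 and fell in 1. Ms4a7, a surface protein of macrophages, was at 7.55, 2.37 and 9.33 FPKM in sham and 43.5, 24.8 and 24.2 at day 7 (2.20 ± 0.43, adjusted p = 0.00906). Trem2, a lipid receptor, was at 5.66, 2.35 and 8.22 and 24.2, 22.6 and 15.9 FPKM (1.87 ± 0.34, adjusted p = 0.00718), and Ctsk, cathepsin K, at 6.57, 4.79 and 7.14 and 34.97, 27.01 and 23.1 (2.03 ± 0.34, adjusted p = 0.00548). Cathepsin and lysosomal protease genes rose in 10 of 20 cases, 6 with sham replicate 2 left out. Without both sham replicate 1 and day 7 replicate 2 the counts of these 3 lists were 1, 5 and 1. Ms4a4c, a monocyte gene that interferon induces, went the other way. It was at 26.3, 11.9 and 37.3 FPKM in sham, 112, 179.8 and 74.96 at day 1, and then 6.98, 9.45 and 7.07 at day 7 (-1.44 ± 0.41, adjusted p = 0.0294).

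Of the chemokine list 4 rose and 2 fell against sham among 24, shares near or below those of all genes. With TPM 8 rose and 1 fell against sham. Against day 1, 9 were lower. Ccl2, the main monocyte attractant, was at 9.02, 10.4 and 14.1 FPKM in sham, 54.9, 71.5 and 78.5 at day 1, and then 8.196, 11.04 and 5.999 at day 7 (-0.38 ± 0.23, adjusted p = 0.22). Ccl12, its close relative, was at 21.6, 21.2 and 23.998, 65.6, 106 and 86.1 and 16.7, 11.99 and 10.9 FPKM, and fell under sham (-0.73 ± 0.19, adjusted p = 0.0224). Both were lower than at day 1 (-2.90 ± 0.23, adjusted p = 0.00186, and -2.61 ± 0.19, adjusted p = 0.00186). Of the neutrophil markers 1 of 11 rose against sham, a share below that of all genes. Lower than at day 1 were 6 of them, among them S100a9 (-2.54 ± 0.44, adjusted p = 0.0224). Clec4d, a lectin that macrophages also express, was the one that rose (1.998 ± 0.28, adjusted p = 0.00338). Il33, an alarmin of stromal cells, was still up, from 8.93, 5.25 and 5.93 to 15.7, 28.6 and 22.4 FPKM (1.58 ± 0.25, adjusted p = 0.00486). Il1b (0.59 ± 0.33, adjusted p = 0.2) and Il6 (1.32 ± 0.54, adjusted p = 0.0881) did not pass. Complement genes rose in 7 of 17 cases and fell in 1, with C1qa at 0.72 ± 0.13 (adjusted p = 0.00718) and C3 at 0.98 ± 0.51, which did not pass (adjusted p = 0.166).

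Genes of dividing cells were still raised. Mitosis genes rose in 23 of 25 cases with a median of 0.95, and DNA replication genes in 16 of 25. The mitosis count was 11, 7 and 11 with sham replicate 1, sham replicate 2 and day 7 replicate 2 left out in turn. Cdk1, the kinase that drives mitosis, was at 1.74, 1.05 and 2.298 FPKM in sham and 6.98, 7.503 and 6.06 at day 7 (1.56 ± 0.24, adjusted p = 0.00458). Mki67, a marker of cycling cells, was at 4.02, 2.14 and 5.73 and 8.27, 16.1 and 8.904 FPKM (1.29 ± 0.30, adjusted p = 0.0145), highest in replicate 2, the library with T cell transcripts, whose part in this value was not tested. Without both sham replicate 1 and day 7 replicate 2, 3 mitosis and 3 replication genes were called. Cdkn1a, the cell cycle inhibitor p21, fell from 28.1, 51.1 and 32.4 to 18.4, 13.9 and 19.3 FPKM (-1.04 ± 0.21, adjusted p = 0.00935), and Cdkn2b, the inhibitor p15, rose from 1.04, 0.704 and 0.837 to 3.49, 2.64 and 3.205 (1.14 ± 0.20, adjusted p = 0.00612). Globin genes were higher as well. Hbb-bs went from 443, 149.7 and 154 to 1416, 557 and 968 FPKM (2.07 ± 0.62, adjusted p = 0.034), and all 5 tested erythroid markers rose, though 0 to 2 with sham replicate 2, sham replicate 3, day 7 replicate 1 or day 7 replicate 3 left out. Without day 7 replicate 1 limma called 0, and 4 were higher at an unadjusted p under 0.05.

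Circadian clock genes moved in both directions, 5 up and 4 down among 18. With TPM 8 were up and 1 down, and the rises numbered 2 to 3 with sham replicate 2, sham replicate 3, day 7 replicate 1 or day 7 replicate 2 left out while the falls numbered 2 with day 7 replicate 1 left out. Dbp, a clock output factor, was at 17.8, 6.38 and 10.9 FPKM in sham, 1.84, 2.29 and 1.55 at day 1, and then 26.2, 32.4 and 31.6 at day 7 (1.39 ± 0.29, adjusted p = 0.0102). Per3, of the repressive arm, was at 4.85, 2.55 and 3.28, 2.38, 2.11 and 1.65 and 10.4, 9.02 and 9.93 FPKM (1.27 ± 0.18, adjusted p = 0.00317). Arntl, the activator BMAL1, was at 3.29, 8.52 and 5.38, 8.52, 7.51 and 7.84 and 1.298, 2.003 and 1.25 FPKM (-1.36 ± 0.25, adjusted p = 0.00788). Dbp and Per3 were thus highest and Arntl lowest at day 7, without overlap with sham. Ciart, a repressor, rose (0.72 ± 0.21, adjusted p = 0.0305). Nfil3, which opposes Dbp at the same sites, fell (-0.95 ± 0.26, adjusted p = 0.0243), a call lost with TPM. Nr1d1, the REV-ERB alpha repressor, did not pass against sham (-0.24 ± 0.16, adjusted p = 0.263) but was higher than at day 1 (1.65 ± 0.16, adjusted p = 0.00234). Against day 1, 8 clock genes were higher and 4 lower. The hour at which each heart was taken is not given in the labels, so hour and day cannot be told apart here.

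**Figure D5:**
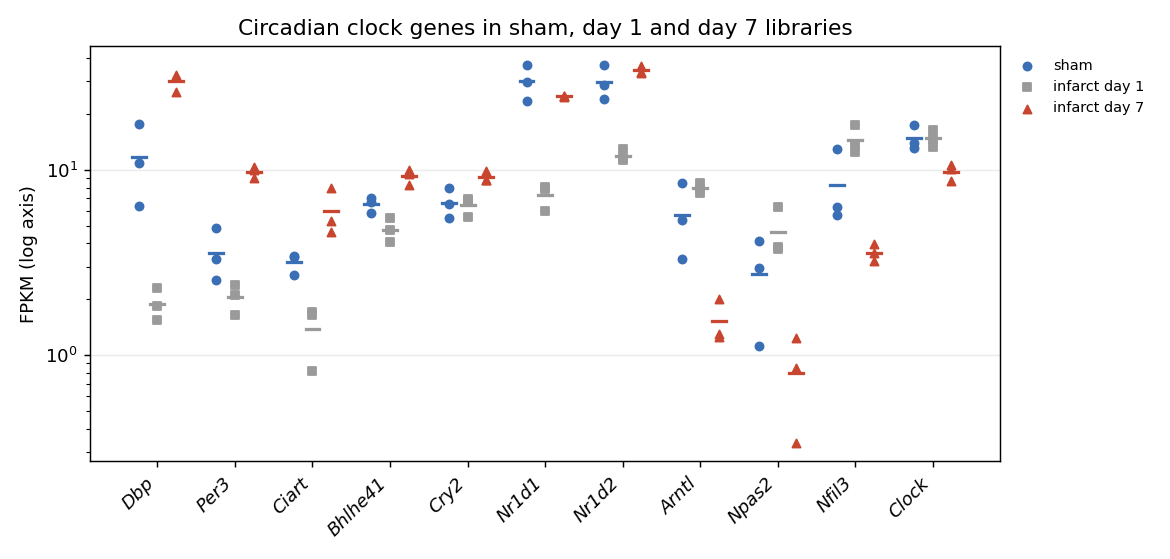
FPKM on a log axis of 11 circadian clock genes in each sham (blue circles), day 1 (grey squares) and day 7 library (red triangles), with bars at the group means. Dbp, Per3 and Ciart are highest and Arntl, Npas2 and Nfil3 lowest at day 7, with Dbp at 26.2 to 32.4 FPKM against 17.8 or less in sham.

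Heat shock genes fell in 14 of 22 cases, a count that includes Hsp90aa1, and in 7 with TPM. The count was 5, 8 and 9 with sham replicate 2, day 7 replicate 1 and day 7 replicate 2 left out in turn. Hspd1, the mitochondrial chaperonin, was at 177, 179 and 164 FPKM in sham and 63.6, 104 and 106 at day 7 (-0.96 ± 0.19, adjusted p = 0.00974). Hsph1, a cofactor of Hsp70, was at 29.1, 41.98 and 21.1 and 12.1, 10.7 and 15.9 FPKM (-1.15 ± 0.23, adjusted p = 0.00983). Hspb8, a small heat shock protein of muscle, was at 229, 314 and 238 and 109.6, 126 and 139.8 FPKM (-1.04 ± 0.20, adjusted p = 0.00807). The groups were separate in all 3. Constitutive proteasome subunits fell in 21 of 32 cases but in 1 with TPM, and 11 to 13 with sham replicate 1, sham replicate 2, sham replicate 3, day 7 replicate 1 or day 7 replicate 2 left out. Cytosolic ribosomal proteins fell in 4 of 75 cases, a share below that of all genes. Rpl12 was among them, and with TPM 1 fell and 6 rose.

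The next 4 genes were called against both sham and day 1. Zbtb16, a transcription factor that glucocorticoids induce, was at 50.2, 39.95 and 52.7 FPKM in sham and 6.37, 12.3 and 16.01 at day 7 (-2.03 ± 0.32, adjusted p = 0.00502). Scgb3a1, a secretoglobin of airways, was highest in sham replicate 1 and went from 25.2, 7.15 and 8.98 to 0.974, 1.74 and 1.85 FPKM (-2.37 ± 0.41, adjusted p = 0.00612). Trf, transferrin, rose from 32.1, 14.98 and 22.9 to 51.1, 69.5 and 71.7 FPKM (1.47 ± 0.27, adjusted p = 0.00778), and Serpinf1, a secreted inhibitor of angiogenesis, from 19.6, 24.7 and 19.7 to 114, 76.2 and 77.3 (1.9995 ± 0.18, adjusted p = 0.000905). The groups did not overlap in any of these 4 genes, which for Zbtb16 and Scgb3a1 was a condition of their choice. Against sham only, Snurf also fell. It shares its transcript with Snrpn and was at 19.6, 10.8 and 10.7 FPKM in sham, 15.6, 6.3e-05 and 1.35 at day 1 and 0.0458 or less at day 7 (-3.80 ± 0.84, adjusted p = 0.0124), and how reads were divided within that locus is not stated.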

How the data were processed

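RNA of wild-type mouse hearts, 9 libraries in all, was extracted with TRIzol and made into libraries (VAHTS Universal V6 kit), as the labels' protocols state. The authors deposited 1 table of FPKM values for 55361 transcripts. FastQC 0.11.9, HISAT2 2.1.0, HTSeq 0.11.2 and the build GRCm39 are named in the submitters' processing notes. Not given in the sources used here were the division of reads among transcripts, the annotation release and the use of strand. Of the positive values 11.8% were far below 1 read's worth (under 1e-06 FPKM), so the reads behind them were fractional, the depth is unknown and no count test could be run.

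The FPKM of the transcripts of a gene were summed here, and genes with a mean of 1 FPKM or more over 9 libraries were kept (13514 of 25468). Gene names came from the file and from the reference tables, and 1148 gene identifiers had no name. Of 432 genes picked by the rule below, 145 share exon bases with another GENCODE gene model, 36 on the same strand, and their values can include reads of it. Values were taken as log2(FPKM + 1) and fitted with limma 3.58.1 (R 4.3.3) with a mean-variance trend, 1 mean per group and all 3 groups in the fit. The tests are two-sided, p-values were adjusted by Benjamini-Hochberg over all genes tested, and an adjusted p under 0.05 was called. A permutation test of 3 against 3 libraries cannot go below 0.1 and was not used. On simulated data of the 13514 genes the test recovered 76.7% of changes of 1 and 94.6% of changes of 2 on the log2 scale, day 7 against sham. Beside the 767 and 946 recovered changes there were 28 and 62 false calls. Recovery with unequal FPKM totals or with libraries that stand apart, as in these data, was not tested. Python 3.11.15 and pandas 2.3.3 made the tables.

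The comparison, the gene lists and the genes printed were chosen with earlier results of these data known. The genes printed include the genes the series concerns, key members of each of the 79 lists and up to 4 called members per list. Added to them are the 10 largest rises and falls and the 6 largest changes called against both sham and day 1. For both rankings a gene had to reach a mean of 5 FPKM, and the groups compared could not overlap. Genes without a name or with only a predicted gene, Rik or clone name were left out of both rankings. The alternatives tried were other scalings, pseudocounts, filters and variance models, the top transcript of a gene instead of its sum, the replicate number as a block, only the compared groups, and libraries left out. Promoter sequences are from RefSeq (GRCm38.p6) and were matched by symbol, and no coordinate of the deposited file was used with them. Some genes that this rule picks are not reported here.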

Additional observations from a re-analysis of the deposited data

Results flagged for a closer look

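For 66 of the genes described or listed here, the effect at day 7 differed from the effect at day 1, tested in limma as the log2 difference of the 2 infarct groups, since both effects are taken against the same sham libraries. The adjusted p-values ran from 0.00186 to 0.0487, and the 2 effects had opposite signs in 21 of the genes. The values below are day 7 minus day 1 on the scale of log2(FPKM + 1). In 40 genes they were positive and in 26 negative. Over all genes tested the shares were 2.71% and 2.14%. The calls depend on the settings given under the processing. With 3 libraries a group, no search for single outlying libraries was made.

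Outside the clock genes, the positive differences were 3.97 for C1qtnf3, 3.33 for Col11a1, 3.33 for Sfrp2, 3.02 for Ccn5, 2.65 for Mfap4, 2.45 for Ltbp2, 2.38 for Postn, 2.09 for Cthrc1, 1.77 for Fn1, 1.71 for Aspn, 1.67 for Col1a1, 1.62 for Mfap2, 1.56 for Mmp2, 1.56 for Col1a2, 1.55 for Adamts2, 1.51 for Matn4, 1.46 for P4ha3, 1.35 for Col5a2, 1.26 for Bgn, 1.15 for Col6a1, 1.02 for Lum and 0.87 for Lama2. The others were 3.12 for Angptl7, 1.56 for Serpinf1, 1.55 for Fstl1, 1.48 for Sfrp1, 1.48 for Frzb, 1.40 for Pi16, 1.39 for Trf, 1.18 for Cd248, 0.81 for Fap, 0.73 for Wt1 and 0.65 for Fzd1.

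Clock genes lay on both sides. The differences were 3.42 for Dbp, 1.83 for Per3, 1.65 for Nr1d1, 1.54 for Ciart, 1.46 for Nr1d2, 1.15 for Tef and 0.84 for Bhlhe41, and on the lower side -1.84 for Arntl, -1.75 for Nfil3, -1.64 for Npas2 and -0.55 for Clock.

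Chaperones and regulators of protein folding were lower at day 7 than at day 1. Their differences were -0.41 for Xbp1, -0.52 for Canx, -0.70 for Pdia4, -0.75 for Hsp90b1, -0.75 for Hspa5, -0.77 for Hspa8, -0.80 for Creld2, -0.91 for Pdia6, -1.01 for Creb3l1, -1.08 for Hsph1 and -1.35 for Sdf2l1. Genes of monocytes, neutrophils and interferon response gave -3.72 for Ms4a4c, -2.90 for Ccl2, -2.61 for Ccl12, -2.54 for S100a9, -1.89 for Csf3r and -1.28 for Oas2. Other genes that were lower were the stress genes Hmox1 and Mt2, the glucocorticoid-induced Zbtb16, the secretoglobin Scgb3a1 and the inhibitor Cdkn1a. Their differences were -2.24 for Hmox1, -1.42 for Mt2, -1.49 for Zbtb16, -1.73 for Scgb3a1 and -0.92 for Cdkn1a.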

How the results depend on the processing

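Of 184 printed genes called at day 7, 96 kept the call in all of their 22 or 23 alternatives and 88 lost it in at least 1, of which 78 lost it without sham replicate 1 and day 7 replicate 2 together and 25 with TPM. Among genes described above, Sdf2l1, Cpt1b and Abcc9 each lost the call in 11 of 23 alternatives and Ms4a4c in 9. Myl2 and Ccl12 each lost it in 8 of 23, Ciart in 8 of 22 and Comp in 7 of 23. The only value that turned sign among called genes was Canx with TPM, at 0.080. The 2127 higher and 2341 lower genes against sham became 3809 and 527 with TPM (87.8% higher) and 3790 and 1043 with a common total without mitochondrially encoded genes, which moved the median of all genes to 0.17. A minimum of 5 FPKM tests fewer genes and gave 1310 higher. Without sham replicate 1 and day 7 replicate 2 together, 762 and 544 were called. Leaving out 1 library gave 1124 to 2276 higher and 1042 to 2618 lower. The counts moved by over 1.5 times without day 7 replicate 1 (1279 and 1307), sham replicate 1 (1417 and 1517), sham replicate 2 (1124 and 1042) or sham replicate 3 (1500 lower).

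The 366 higher and 289 lower genes against day 1 became 113 and 72 with TPM, 584 and 466 with array weights, 78 and 88 with only these 2 groups in the fit, and 123 and 62 without both libraries. A minimum of 5 FPKM gave 242 higher. Leaving out 1 library gave 75 to 275 higher and 62 to 244 lower, with the lowest counts without day 1 replicate 2. Except where fewer genes or samples enter, the cause was not tested.

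Same-numbered sham and day 7 libraries did not deviate together (correlations -0.0683, -0.261 and -0.129). With 3 libraries a group, each centred on its group mean, these values cannot exclude that the numbers pair the libraries. With the replicate number as a block 1717 and 1893 genes were called against sham, and 144 and 93 against day 1. Since depth is unknown, the counting error of low values cannot be given, and the day 7 values of Hsp90aa1, Rpl12, Rrp1 and Gm26917 need the reads to be checked.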
